A study of Xenopus laevis with 3 samples.

Results

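Amino acid positions at which several variant residues had been recorded were examined in the frog Xenopus laevis. A position was included when the deposited list of amino acid changes named 2 or more different variant residues for the same protein model and residue number. There were 388 such positions among 28616 variant positions (1.36%), in 354 of 11603 genes (3.05%). They held 780 of the 29008 changes in the list. In 384 positions 2 variant residues were named and in 4 positions 3, while the 28228 positions outside the rule had a single variant residue each. The members were chosen by the variant residues themselves, so their number is a description and was not tested.

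The changes were found by sequencing RNA from pools of 10 whole tadpoles per cross, taken at stage 42 of the Nieuwkoop-Faber (NF) series. The 3 libraries were albino inbred animals, pigmented inbred animals of the J Strain, and hybrids of albino with J Strain for which the labels name both reciprocal crosses, each group having 1 library. Stated depth was about 30000000 to 47000000 paired reads of 100 bases per library. The list names no library, strain or read depth, so a change cannot be assigned to a cross, and no spread between replicates could be measured. Intervals below are 95% Wilson intervals over positions or changes and cover counting error only. Changes at a shared position, and positions of the same gene, are not independent of each other.

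A codon is a run of 3 bases that specifies a residue, and most residues are specified by several synonymous codons. Several residues can replace the same reference residue in 2 ways. A single base may carry more than one alternative base, or different bases of the codon may each carry a variant. In the second case each residue listed is that of a codon with only 1 base changed, and a chromosome that carries both variants encodes whatever the doubly changed codon specifies. The frog's genome joins 2 ancestral genomes, so a gene may have a homeolog on the long (L) and on the short (S) chromosome of a pair, written as emp1.L and emp1.S.

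The codons that carry the result are shown first for 4 sites, chosen because they stand for the kinds of residue set found. All letters below come from the standard genetic code and the residues in the list, since the list holds no base sequence for these positions. In commd1.L, which encodes a protein of copper handling and endosomal sorting, G148R and G148E need the reference codon GGA or GGG, a change of base 1 for arginine and a change of base 2 for glutamate. Both together would give lysine or glutamine. In elk4.S, an ETS transcription factor, S63P and S63F need TCC or TCT with changes at bases 1 and 2, and both together would give leucine. In tpp2.S, a large cytosolic peptidase, M1252L and M1252I arise from ATG by changes at bases 1 and 3. In emp1.S, a small membrane protein of epithelia, D131H, D131V and D131E need GAC or GAT with changes at bases 1, 2 and 3. Residues are written with the reference residue first and positions are counted from 1 in the authors' protein models.

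A shared codon could be found for each multi-residue position: in 388 of 388 (interval 99 to 100%) at least 1 reference codon gave all listed residues by a single base change each. The same held for each of the 29008 changes of the whole list taken alone. Changes at a position share their reference codon, so a list of single base variants would give this result by construction. It therefore describes the list and not these positions in particular. In 373 positions (96.1%, 93.7 to 97.6) the residues needed different bases of the codon. The other 15 (3.87%, 2.36 to 6.28) could come from the same base or from different bases. No position needed 2 alternatives at the same base, 0 of 388, which allows a share of up to 0.773% when a count of 0 is read as at most 3, and up to 0.98% by the Wilson interval. The genetic code permits such sets: of the 429 sets of a reference residue and 2 variant residues that a single codon can give, 132 (30.8%) need the same base, 282 (65.7%) need different bases and 15 can arise either way. That comparison counts each possible set once and takes no account of codon use or mutation rates. The filter that the authors' variant caller applied to bases with more than 1 alternative is not given in the sources used here, and its part in the result was not tested.

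**Figure D1:**
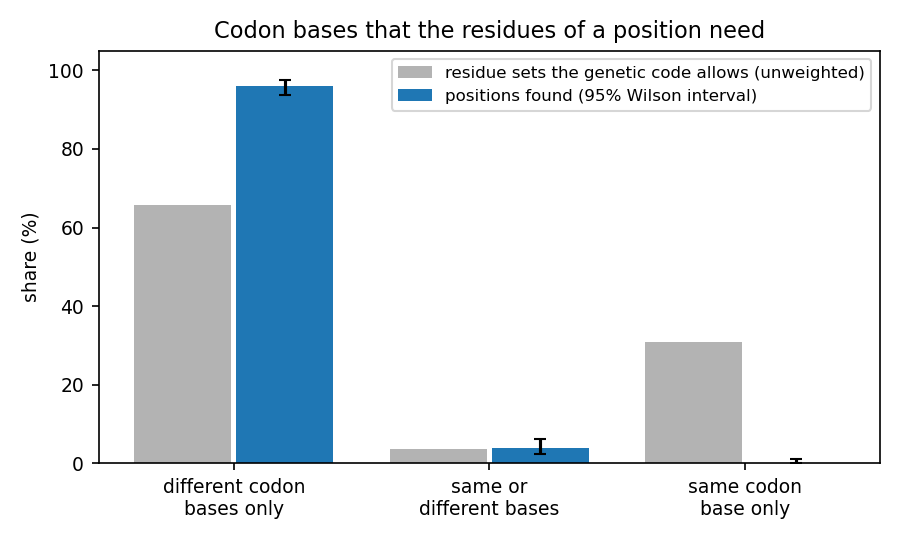
Share in percent (vertical axis) of the residue sets that the genetic code allows for 2 variant residues (grey, 429 sets, each counted once) and of the 388 positions found (blue, with 95% Wilson intervals), by the codon bases that the residues need. The blue bar for sets that need the same base is at 0, while 30.8% of the sets in the code fall there.

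Most positions fell on the first 2 bases of the codon. Among the 369 positions with 2 residues that needed different bases, 254 (68.8%) used bases 1 and 2, 52 (14.1%) bases 2 and 3, 43 (11.7%) bases 1 and 3, and 20 allowed bases 1 and 2 or bases 2 and 3. The corresponding sets in the code were 75.2% for bases 1 and 2, 13.1% for bases 2 and 3 and 9.22% for bases 1 and 3. All 4 positions with 3 residues used each of the 3 bases. Besides D131 of emp1.S they included Q1029K, Q1029L and Q1029H of vcan.L, which encodes versican, a large proteoglycan of the extracellular matrix. The other two lay in genes without a symbol, with aspartate changed to alanine, asparagine or glutamate, and leucine changed to phenylalanine, isoleucine or serine. None of these 4 positions held a change predicted to be damaging.

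The residues that both changes would give together were worked out for the 384 positions with 2 variant residues. In 292 (76.0%, 71.5 to 80.0) the doubly changed codon would specify a residue that is neither the reference nor listed. In 52 (13.5%, 10.5 to 17.3) it would specify a residue already listed, as for M177I and M177V in dnttip1.L, a subunit of a histone deacetylase complex, where both changes together would leave valine. In 30 it depended on the reference codon or on the variant bases which of these applied. A stop codon was among the possible products in 6 positions, none in a gene with a symbol. In the remaining 4 the double change would restore the reference residue. These 4 all replaced serine by cysteine and by threonine. Serine has codons of the form TCN and also AGC and AGT, and threonine and cysteine lie a single change from members of both families. They included S520T and S520C in vcam1.S, a cell adhesion receptor, with predicted probabilities of damage of 0.494 and 0.909, and S253C and S253T in dusp5.L, a MAP kinase phosphatase, with 0.001 for both. dusp5.L was named after its values were seen. Whether variants of a codon lay on the same chromosome was not analysed here, so the products describe the code and not a protein that was observed.

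The residue sets were diverse. The 384 positions with 2 residues spread over 180 different sets, of which 78 occurred at a single position. Alanine changed to threonine and to valine was the most frequent, at 12 positions, and both changes together would give isoleucine or methionine there. Methionine changed to isoleucine and leucine, serine to asparagine and arginine, and threonine to alanine and isoleucine were found at 8 positions each. Methionine to isoleucine and valine followed with 7 positions, and glycine to glutamate and arginine, and valine to alanine and isoleucine, with 6 each.

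By reference residue, serine was the most frequent, with 41 positions (10.6%, 7.89 to 14.0), against 9.55% of all variant positions. Methionine stood highest relative to all positions, with 24 positions (6.19%, 4.19 to 9.04) against 3.08%. It has a single codon, ATG, in which a change of any base alters the residue. Tryptophan also has a single codon, TGG, and stood at 0.773% (0.263 to 2.25) against 0.531%. The part of the codon in these shares was not tested. Tyrosine stood lowest, with 1 position (0.258%, 0.0455 to 1.45) against 2.10%. For the other 18 residues the interval of the members included the share over all positions. Of the 20 methionine positions with a prediction, 0 held a change that PolyPhen-2, described below, called damaging, against 74 of all 317 predicted multi-residue positions (23.3%), and 3.3% of all predicted methionine changes in the list were damaging. Of the 35 serine positions 15 held a damaging change, with 28.6% of their changes damaging against 19.7% of all serine changes. Leucine had 8 of 22 such positions, with 28.9% of changes damaging against 32.2% of all leucine changes. Glycine had 6 of 16, with 37.5% against 36% of all glycine changes. Tryptophan had 2 of 2, from only 4 changes, 3 of them damaging, against 25% of all tryptophan changes. The rule uses the residues themselves, so these shares were not tested.

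**Figure D2:**
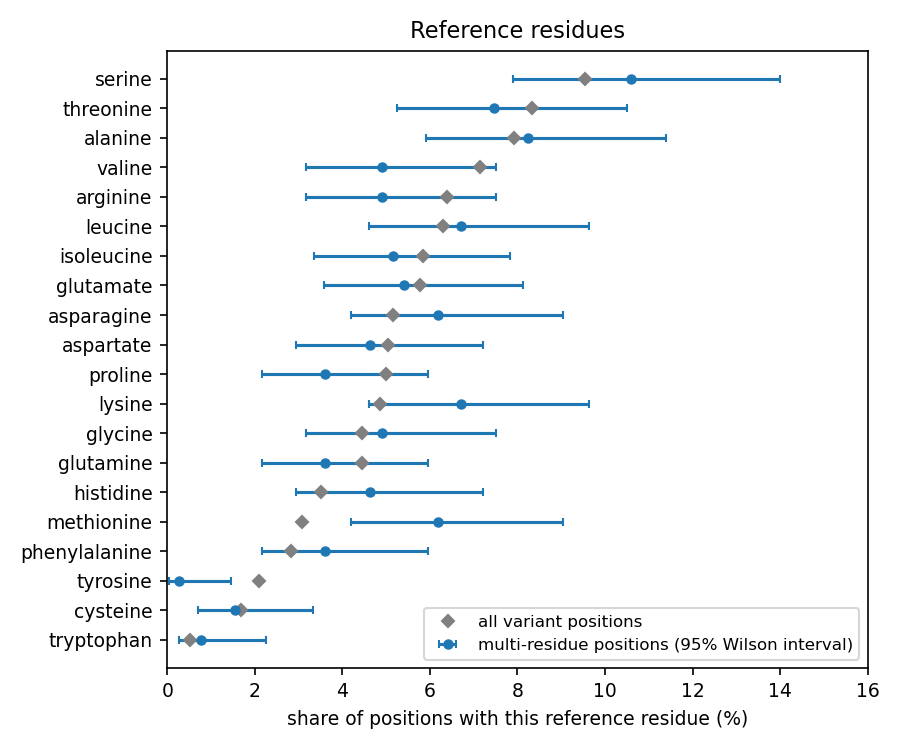
Share in percent (horizontal axis) of positions with each reference residue (vertical axis), for the 388 multi-residue positions (blue points with 95% Wilson intervals) and all 28616 variant positions (grey diamonds). Methionine at 6.19% lies above and tyrosine at 0.258% below their shares over all positions, outside the interval.

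The kind of exchange was described by BLOSUM62, a substitution score that is 0 or higher for exchanges often seen between related proteins. At multi-residue positions 55.6% of changes (52.1 to 59.1) scored 0 or higher, against 62.3% of all changes (61.8 to 62.9). Transitions, exchanges between the 2 purines or the 2 pyrimidines, could account for at most 46.8% of the members' changes (43.3 to 50.3) and 51.5% of all changes. Each change was taken alone here, over all codons of its reference residue. The codon that a position shares can exclude a transition counted here, as for leucine changed to phenylalanine and tryptophan, which needs TTG. A change of charge class (acidic, neutral, or basic as lysine and arginine) occurred in 33.1% of the members' changes (29.9 to 36.5) and 28.0% of all changes. In 193 of 384 positions with 2 changes (50.3%, 45.3 to 55.2) a change scored 0 or higher and its partner scored below 0. In 117 positions both scored 0 or higher, and in 74 both scored below 0. With 55.6% of single changes at 0 or higher, unrelated changes would also often form mixed pairs. The share that unrelated changes would give was not computed, so these counts describe no trait of shared positions.

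Predicted harm was read from PolyPhen-2, which gives each change a probability of damage from 0 to 1 based mainly on an alignment of related proteins. Changes are called possibly damaging from 0.447 and probably damaging from 0.909 in this list. Of the 388 positions, 317 had predictions for every change and 71 had none. At these 317 positions 107 of 638 changes were damaging (16.8%, 14.1 to 19.9), where 19.9% of all 24110 predicted changes were. Probably damaging changes made up 4.39% (3.05 to 6.27), where the whole list had 6.96%. Of the 354 genes, 309 also held other variant positions. Predicted changes there were damaging in 20.8% (18.9 to 22.8) and probably damaging in 6.39% (5.31 to 7.68). The median probability was 0.006 for the members' changes and 0.010 for all predicted changes.

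Predictions went together within a position. No change was damaging in 243 of 317 positions (76.7%, 71.7 to 81.0), all were damaging in 33 (10.4%, 7.51 to 14.3), and 41 (12.9%, 9.68 to 17.1) held a damaging and a benign change. Of the damaging changes, 66 of 107 (61.7%, 52.2 to 70.3) had a damaging partner, while 41 of 519 benign changes (7.90%, 5.88 to 10.5) at positions with 2 residues did. The changes of a position share its alignment. The number of aligned residues was the same for all changes at each of the 370 positions with a value, and the other 18 had none. The median difference between the highest and lowest probability of a position was 0.014 (quartiles 0.001 and 0.177). It was at most 0.01 in 153 positions, and above 0.5 in 25. The members' changes had a median probability of 0.006, close to the lowest value, so unrelated changes would also often differ little. The difference between unrelated changes was not computed.

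**Figure D3:**
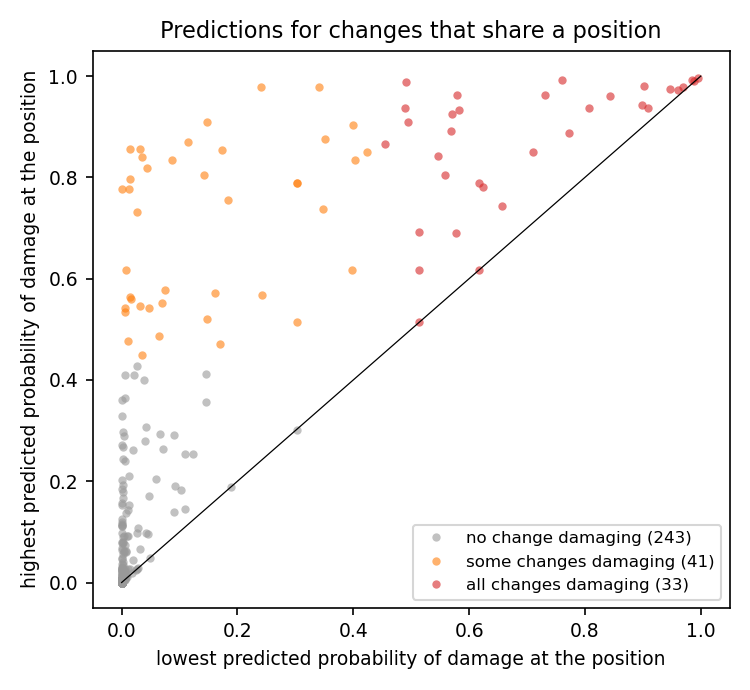
Highest against lowest predicted probability of damage (both axes from 0 to 1) for the 317 multi-residue positions with predictions; each point is a position, and the line marks equal values. Most of the 243 positions without a damaging change (grey) sit near the origin, the 33 with all changes damaging (red) lie at the upper right, and the 41 mixed positions (orange) lie along the upper left.

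The 33 positions at which every change was damaging included 13 in genes with a symbol. In 6 of the 33 both changes were probably damaging, in 13 a probably damaging change stood beside a possibly damaging one, and in 14 both were possibly damaging. The highest pair was that of commd1.L, with 0.995 for G148E and 0.997 for G148R over 52 aligned residues. In elk4.S the probabilities were 0.985 for S63F and 0.993 for S63P over 62 aligned residues. In ahnak-like.S, a giant scaffold protein, they were 0.969 for D755G and 0.978 for D755N over 145. These 3 rest on deep alignments, and in each the partner changes differ by less than 0.01.

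Others rest on few aligned residues. In fgd4.S, an exchange factor for the small GTPase Cdc42, G756V and G756R had 0.988 and 0.991 with only 2 aligned residues. In ddit3.S, a stress-induced transcription factor, P85T and P85R had 0.960 and 0.973 with 3. In prx.L, which encodes periaxin, a scaffold of myelinating Schwann cells, D1171V and D1171Y had 0.908 and 0.937, also with 3. Of the 33 positions, 15 had fewer than 10 aligned residues. The median was 11 aligned residues at the 33 positions, 27 where no change was damaging and 58 where the changes fell in different classes.

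Further positions with both changes damaging lay in well-aligned proteins. The actin-binding protein gene twf1.L had 0.898 for I339F and 0.942 for I339M over 139 aligned residues. The phosphoinositide phosphatase gene synj1-like.L had 0.761 for G2381E and 0.992 for G2381R over 55, from the same residue set as commd1.L. The epithelial zinc finger factor ovol2.L had 0.731 for S268T and 0.963 for S268Y over 45. In ca13.L, a carbonic anhydrase, K257N and K257I had 0.624 and 0.781 over 39. Here AAA is the only codon of lysine that fits, with changes at bases 2 and 3, and both together would leave isoleucine.

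At 41 positions a damaging change stood beside a benign one. The largest difference among genes with a symbol was in slitrk6.S, a leucine-rich repeat membrane protein of neurons, where S527T had 0.035 and S527F 0.840 over 38 aligned residues. In kdm6a.S, a histone demethylase, R63S had 0.013 and R63M 0.777 over 347. AGG is the single arginine codon that fits there. In atg3.S, an enzyme of autophagy that conjugates ubiquitin-like proteins to lipid, D191V had 0.173 and D191Y 0.855 over 75. In all 3 genes the residue with the lower value was also present in an aligned homologue and its partner was not.

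The same held in pdc.L and uaca-like.L. In pdc.L, the photoreceptor protein phosducin, E127A had 0.016 and E127D 0.559 over 271 aligned residues, so the chemically closer residue had the higher value. In uaca-like.L, an ankyrin repeat and coiled-coil protein, T1004A had 0.005 and T1004M 0.543 over 69. In flrt2.S, an adhesion protein of axon guidance, Y602N had 0.352 and Y602C 0.876 over 37, in plekhm1-like.S, a lysosomal trafficking adaptor, N503T had 0.047 and N503H 0.543 over 51, and in lman1.L, a cargo receptor of the secretory pathway, V20A had 0.302 and V20M 0.788 over 2. No aligned homologue carried either residue in these last 3 genes. The tyrosine of flrt2.S is also the only tyrosine among the 388 positions.

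At the other end both changes were at probability 0 in deep alignments. The genes were ankrd6.L, an ankyrin repeat protein of Wnt signalling (G316C and G316V, 76 aligned residues), ankfy1.S, an endosomal protein (R841G and R841T, 69), tpp2.S (M1252I and M1252L, 65) and dnttip1.L (M177I and M177V, 55). In ankrd6.L and tpp2.S both variant residues were present in aligned homologues, and in the other two genes neither was.

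The variant residue was less often present in a homologue at multi-residue positions. PolyPhen-2 reports a congruency value, IdPSNP, when an aligned homologue carries the variant residue. It was given for 247 of 638 predicted changes at multi-residue positions (38.7%, 35.0 to 42.6), against 56.4% of all predicted changes. It was given for 54.5% (52.1 to 56.9) at other positions of the same genes and 57.1% (56.4 to 57.7) in other genes. Alignment depth differed between the groups. The median was 22 aligned residues at multi-residue positions, a lower 8 at other positions of these genes and a higher 37 in other genes. These medians include positions with 0 aligned residues and no prediction, whereas the shares cover predicted changes only. With 10 or more aligned residues the shares were 49.9% (45.1 to 54.6), 65.6% (62.6 to 68.4) and 66.1% (65.3 to 66.8), and with fewer than 10 they were 17.4% (12.9 to 22.9), 36.7% (33.0 to 40.5) and 33.3% (32.1 to 34.5). The members thus lay below both other groups within each depth class, by more than the counting intervals. The share of damaging changes overlapped between members and the same genes in each depth class: 17.2% (13.9 to 21.1) and 19.9% (17.5 to 22.4) with 10 or more aligned residues, and 16% (11.7 to 21.4) and 22.3% (19.2 to 25.8) with fewer. Probably damaging changes with 10 or more aligned residues made up 4.77% (3.11 to 7.26) at multi-residue positions, 8.46% (6.91 to 10.3) in the same genes and 8.39% (7.97 to 8.83) in other genes, so that the members' interval lay below that of other genes and overlapped that of the same genes. With fewer than 10 the members were not lower, at 3.65% (1.86 to 7.04), 3.03% (1.95 to 4.68) and 3.64% (3.20 to 4.15) in the same order.

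**Figure D4:**
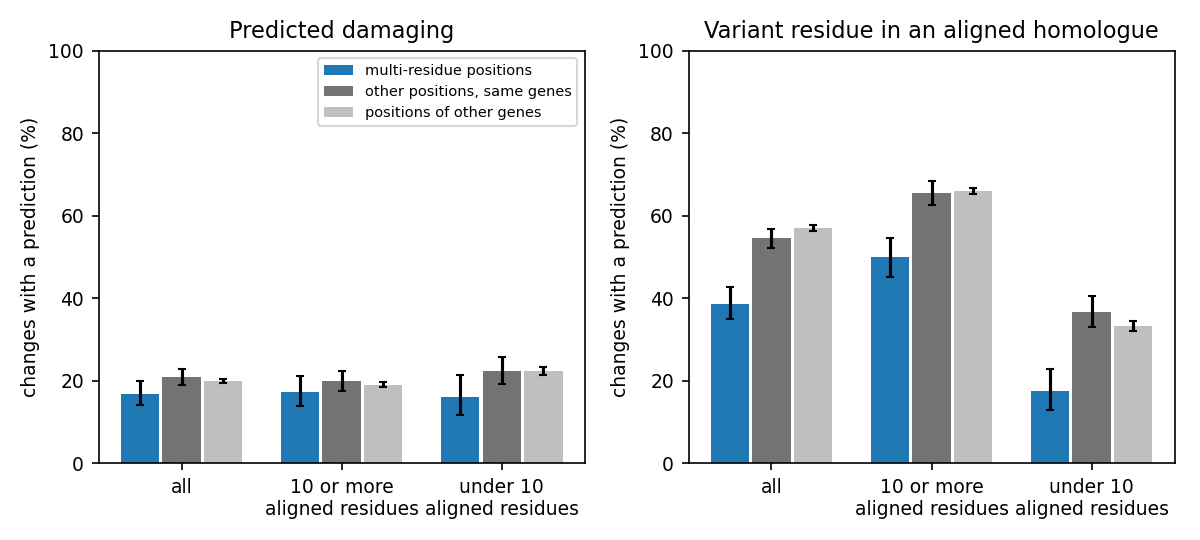
Share in percent (vertical axes) of predicted changes that were damaging (left) and whose variant residue was present in an aligned homologue (right), at all positions and split at 10 aligned residues; bars are multi-residue positions (blue), other positions of the same genes (dark grey) and positions of other genes (light grey), with 95% Wilson intervals. In the right panel the blue bar is the lowest in each set, 38.7% against 54.5% and 57.1% overall.

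Within positions, neither variant residue was found in a homologue at 121 of the 317 predicted positions, a single one at 145 and both at 51. At least 1 change was damaging in 43 of the 121, in 29 of the 145 and in 2 of the 51. These groups also differed in depth, with medians of 5, 43 and 76 aligned residues. The part of depth in these counts was not tested. Among the 143 positions where a homologue carried exactly 1 of 2 residues, that residue had the lower probability in 131, an equal one in 12 and the higher one in 0. The alignment that yields this measure is also an input to the prediction, so the order is not independent evidence. For BLOSUM62, in 124 of 204 positions that differed in both measures, the change with the lower score had the higher probability.

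Genes with multi-residue positions were rich in variants. They held a median of 5 missense and 5 synonymous sites, against 1 and 2 in other listed genes. The missense count includes the changes at the multi-residue positions themselves, and a gene with a single missense site cannot hold such a position. The difference in missense sites is thus partly fixed by the rule. The other listed genes include those with a single missense site, so the synonymous medians do not compare like genes either. No comparison of synonymous sites limited to genes with 2 or more missense sites was made. Of genes with 2 missense sites 45 of 2498 held a multi-residue position (1.8%, 1.35 to 2.40), of those with 3 to 5 sites 143 of 2249 (6.36%), of those with 6 to 10 sites 92 of 707 (13.0%), of those with 11 to 20 sites 50 of 219 (22.8%), and of those with more sites 24 of 52 (46.2%, 33.3 to 59.5). Counted per variant position the share moved less, from 0.909% (0.680 to 1.21) in genes with 2 sites to 2.23% (1.76 to 2.83) in genes with 11 to 20 and 1.97% (1.41 to 2.73) in genes with more. More changes in a gene give more occasions for 2 of them to share a position. A rise with the number of sites is thus partly fixed by the count.

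The nearest other variant position lay a median of 23 residues from a multi-residue position, 17 from other positions of the same genes and 43 from positions of other genes, where a neighbour existed. A neighbour existed for 343 of 388 members, 2174 of 2174 other positions of the same genes and 20176 of 26054 positions of other genes. The second count is fixed by the rule, because those genes hold a multi-residue position, which can itself be the neighbour. The groups are thus not on equal terms. Adjacent residues were variant for 7.47% of members (5.25 to 10.5), 7.73% of other positions of the same genes (6.68 to 8.93) and 3.25% of positions of other genes (3.04 to 3.47).

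**Figure D5:**
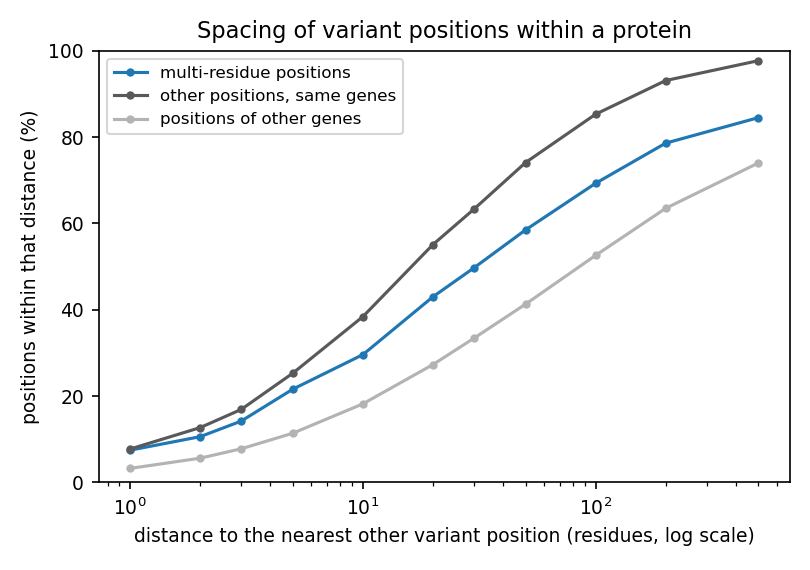
Share in percent of positions (vertical axis) with another variant position of the same protein within a given number of residues (horizontal axis, log scale), for multi-residue positions (blue), other positions of the same genes (dark grey) and positions of other genes (light grey). At 10 residues the lines stand at 29.6%, 38.4% and 18.2%. Genes with a single variant position count as having no neighbour, while other positions of the same genes always have one by the rule.

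Of the 354 genes, 327 held a single multi-residue position, 22 held 2, 3 held 3 and 2 held 4. The 2 genes with 4 (Xelaev18027450m and Xelaev18003132m) have no symbol. Among genes with a symbol, 9 held 2 positions each. In fgfbp3.S, a binding protein for fibroblast growth factors, these were Q84K with Q84H (0.042 and 0.308) and T183P with T183I (0 and 0.002). In kal1.S, the matrix protein anosmin, which guides olfactory and GnRH neurons, V420A with V420L were at 0 and A504T with A504E at 0.011 and 0.476. In vcam1.S they were S520 and E287V with E287D (0.002 and 0.013). In ppl.L, the desmosomal linker periplakin, A64P with A64V had 0 and 0.004 and K135E with K135M 0.004 and 0.010. In mall.L, a small membrane raft protein, G50R with G50E had 0.001 and 0.024 and A126V with A126P 0.002 and 0.003.

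In the other 4 genes at least 1 position had no aligned residue. In slc4a1ap.S, which encodes kanadaptin, V283A with V283L had 0.031 and 0.066 over 103 aligned residues, while Q182H with Q182P had no prediction. Both positions of limch1-like.S, an actomyosin regulator, and of each copy of pprc1-like, a coactivator of mitochondrial gene expression, had 0 aligned residues and no prediction. In the L copy these were D613V with D613Y and V1390A with V1390I, and in the S copy D555G with D555Y and D877E with D877N.

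The intervals of L and S copies overlapped. Multi-residue positions were found in 71 of 2710 listed L copies (2.62%, 2.08 to 3.29), 71 of 2957 S copies (2.40%, 1.91 to 3.02) and 212 of 5936 genes outside the table of pairs (3.57%, 3.13 to 4.07). Per variant position the shares were 1.22% (0.974 to 1.53), 1.08% (0.872 to 1.35) and 1.54% (1.36 to 1.75).

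Genes with a symbol numbered 103 of 4452 (2.31%), and gene lists were formed by the start of the symbol. The lists therefore miss genes described above whose symbols start otherwise. Examples are the adhesion receptor vcam1.S, the transcription factor elk4.S and the desmosomal linker ppl.L. The counts below are thus not shares of functional classes. Cytoskeleton and giant linkers had 8 of 115 (6.96%, 3.57 to 13.1), namely ahnak-like.S, akap2.L, akap9.L, ankfy1.S, ankrd6.L, dst.L, krt222-like.S and map1a-like.2.L. Of these, ankfy1.S and ankrd6.L, the endosomal and the Wnt signalling protein named above, entered by the letters ank and are not ankyrin linkers. Chromatin and transcription had 7 of 134 (5.22%, 2.55 to 10.4), among them kdm6a.S, kmt2c.S and ncor1.S. The lists of transporters and channels (1 of 151, 0.662%, 0.117 to 3.66) and ubiquitin genes (1 of 89, 1.12%) lay lowest, and the 1 match among the former, slc4a1ap.S, is no transporter. DNA repair and cell cycle had 1 of 22, matrix and adhesion 2 of 95 (both copies of vcan), signalling and receptors 2 of 113, plasma, complement and lipid 2 of 45, enzymes of metabolism 1 of 41, and RNA and translation 1 of 71. The 2 matches of the plasma list, fgfbp3.S and fgd4.S, share only the letters fg with fibrinogen genes. The part of the number of sites per gene in these counts was not tested.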

How the data were processed

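Per the labels' protocols, total RNA was extracted from frozen whole tadpoles and depleted of ribosomal RNA. CASAVA 1.8.2, TopHat, SAMtools and Trimmomatic appear, with no role, in the submitters' processing notes. How variants were called and filtered, and on which build, is not given in the sources used here. Strain letter codes in the labels contradict each other and were not used. The authors deposited 3 tables of the whole series. The per-change table gives, per the file headers, a fraction from 0 to 1 that is the probability of damage, the count of aligned residues (Nobs), profile scores and congruency scores from PolyPhen-2. The authors' per-gene table holds counts of missense and synonymous sites; a header line counted there as a gene was left out. The third table, as deposited, pairs 8660 names with an L and an S identifier; names starting with LOC, MGC or Xetrov were not taken as symbols.

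Members are positions with 2 or more different variant residues. For each, every codon of the reference residue was searched for single base changes giving all listed residues (standard code, Biopython 1.88), after testing on simulated codons. Values were described beside those of all changes; no test was made, because no column names a sample. Wilson intervals came from SciPy 1.17.1. The named genes were, among genes with a symbol, all positions with 3 residues, up to 10 genes with several positions, up to 10 positions with all changes damaging, up to 8 with the largest difference, and up to 4 at the lowest probability with at least 10 aligned residues. Positions that no single codon could explain were to be named too, and 0 were found. Members and gene lists were chosen with earlier results of these data known. Alternatives are given in the closing section. For medians and counts a move of over 1.5 times, and for shares a move outside the 95% Wilson interval, was taken as a change.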

Additional observations from a re-analysis of the deposited data

How the results depend on the processing

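With at least 10 aligned residues, 209 positions in 197 genes remained (42 L, 41 S, 114 outside the pair table), 98.1% of them needed different bases, the median of the higher probability was 0.066 and the median number of aligned residues 54. A shared codon that also allowed a transition for at least 1 change was found at 66.8% of positions (259 positions). This is a stricter measure, and the share with any shared codon stayed at 100%. Counting only probably damaging changes gave a damaging share of 4.39% and 16 positions with differing classes, and a probability of at least 0.9 gave 4.86% and 15. Taken per position, 23.3% had a damaging change as their highest and 10.4% as their lowest. Restriction to genes with a symbol, chosen after seeing the data, left 112 positions in 103 genes. Of these genes 0 were outside the pair table by construction, because symbols come from it. The damaging share was 20.6%, and 14 positions had differing classes. Over the whole list, with and without a symbol, 19.9% of predicted changes were damaging. The split at 10 aligned residues was also chosen after seeing the data. The remaining 48 of 68 recomputed values stayed at or within the limits, which were 1.5 times for counts and medians and the 95% Wilson interval for shares. The median number of aligned residues lay at that limit with predicted changes alone, at 33 against 22. Fewer positions entered with at least 10 aligned residues and in genes with a symbol, and the cause of the shifts was not tested. No paired analysis was possible because each group has 1 library and no column names a library. Read depth per site was not analysed here, so neither sequencing error nor mismapped copies can be set against these positions.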

Other observations

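Multi-residue positions occurred in both copies of 4 of the 138 homeolog pairs that held any, among them emp1, vcan and pprc1-like, which were chosen after their values were seen. Among all listed genes, 2.62% of L copies and 2.40% of S copies held such a position. How many of the 138 pairs had both copies in the list was not counted, so whether 4 is many or few cannot be said. In emp1 the multi-residue positions lay at nearby residue numbers, Q133E with Q133H in emp1.L and D131 in emp1.S, and both listed glutamate and histidine as variant residues. The list held only 3 changes in emp1.L and 4 in emp1.S. In each copy the nearest other variant position was 1 residue away, so the changes of each copy lay close together. The probabilities in emp1.L were 0.001 and 0.119 over 36 aligned residues, and in emp1.S they ran from 0.001 to 0.154 over 29. The copies of vcan differed in place, with Q1029 in vcan.L and E2674D with E2674Q in vcan.S (0 and 0.015, 5 aligned residues). Whether these residues align between the copies was not analysed here.

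In 1 gene without a symbol, residues 68 and 69 were both multi-residue positions, with A68T and A68D beside N69D and N69S, so 4 changes fell within 2 neighbouring codons. No other members were adjacent. The first 30 residues of the protein models held 24 members (6.19%, 4.19 to 9.04), against 2.58% of other positions of the same genes (1.99 to 3.33), 6.99% of positions of other genes (6.68 to 7.30) and 6.64% of all variant positions. They included S2A and S2F of ndufb4.L and F29S and F29I of ndufs7.S, which encode subunits of respiratory complex I and were named after their values were seen.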
